A study of Mus musculus with 2 samples.

Results

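Messenger RNA of 9 genes for the perinuclear theca of sperm and for egg activation was followed through the germ cells of the adult mouse testis. The genes were Actl7a, Actl7b, Actl9, Actrt2, Capza3, Cylc2, Ccin, Plcz1 and Wbp2nl. They were taken by symbol and not by a cutoff on their levels, but with earlier results of these data known. Each matched 1 of the 50686 genes in the count matrix. A part of the testis tissue of 2 wild-type C57Bl/6J mice, labelled whole testis, was dissociated. The mice were 8 weeks old and from the same litter. Cells were passed through a strainer and captured in droplets with the 10x Chromium 3' v2 chemistry, giving 1 library per mouse. There was no treatment and no mutant, so the comparisons are between cell clusters, with the mouse as the replicate (n = 2). The 9 genes together received 127625 unique molecular identifiers (UMIs, each standing for 1 captured RNA molecule), 0.221% of all UMIs.

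The perinuclear theca is a rigid protein shell between the sperm nucleus and the membranes that surround it. Under the acrosome it carries actin-like proteins that hold the acrosome to the nucleus, and behind the acrosome it forms the calyx, built from the basic protein cylicin and the kelch-repeat protein calicin. The part of the theca behind the acrosome dissolves into the egg after fusion and has been examined as a carrier of factors that start the calcium waves of egg activation, chief among them the sperm phospholipase C zeta. These proteins are known mainly from spermatids, the haploid cells that follow meiosis, and from sperm.

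Of the 9 genes, 5 lie on mouse chromosome 4 (Ccin, Cylc2, Actl7b, Actl7a and Actrt2) and 2, Plcz1 and Capza3, next to each other on chromosome 6. Positions are from GRCm38. Actl7a (ENSMUSG00000070979, chr4:56743413-56744925, plus strand) and Actl7b (ENSMUSG00000070980, chr4:56740005-56741443, minus strand) point away from each other, with 1970 bp between their starts. Capza3 (ENSMUSG00000041791, chr6:140041252-140042778, plus strand) and Plcz1 (ENSMUSG00000030230, chr6:139989673-140041457, minus strand) also run in opposite directions and overlap by 206 bp at their 5′ ends. The others are Actl9 (ENSMUSG00000092519, chr17:33432896-33434268, plus strand), Actrt2 (ENSMUSG00000051276, chr4:154666433-154667867, minus strand), Cylc2 (ENSMUSG00000039555, chr4:51216678-51230272, plus strand), Ccin (ENSMUSG00000070999, chr4:43983483-43985423, plus strand) and Wbp2nl (ENSMUSG00000022455, chr15:82298954-82314623, plus strand). Actl7a, Actl7b, Actl9, Actrt2 and Ccin have a single annotated exon. That is 5 of 9, against 5.91% of 21764 protein-coding genes matched in the same annotation.

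Promoter windows of the RefSeq tables, from 250 bases before to 50 bases after the gene start, were at hand for 5 of the 9 genes. The last 150 bases before the start are shown for these, because the genes differ in when they come on and the windows can be set beside that order. Each is written 5′ to 3′ on the strand of its gene (GRCm38.p6), with matches to TGANGTCA in capitals. This pattern was chosen after the sequences had been seen. The starts are those of RefSeq and can lie some bases from the gene ends given above.
Ccin, chr4:43983354-43983503, plus strand: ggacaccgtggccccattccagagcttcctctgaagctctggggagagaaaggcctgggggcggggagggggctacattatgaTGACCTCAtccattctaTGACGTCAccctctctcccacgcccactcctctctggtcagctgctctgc
Actl7b, chr4:56741426-56741575, minus strand: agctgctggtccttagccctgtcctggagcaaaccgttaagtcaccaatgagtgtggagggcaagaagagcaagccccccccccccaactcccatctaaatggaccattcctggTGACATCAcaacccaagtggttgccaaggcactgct
Actl7a, chr4:56743272-56743421, plus strand: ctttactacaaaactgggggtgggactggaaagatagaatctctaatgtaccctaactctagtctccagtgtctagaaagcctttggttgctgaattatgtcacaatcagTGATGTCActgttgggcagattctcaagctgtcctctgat
Actrt2, chr4:154667868-154668017, minus strand: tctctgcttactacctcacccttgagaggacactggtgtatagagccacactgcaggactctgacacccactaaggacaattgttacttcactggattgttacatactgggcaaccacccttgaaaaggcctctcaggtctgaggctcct
Actl9, chr17:33432749-33432898, plus strand: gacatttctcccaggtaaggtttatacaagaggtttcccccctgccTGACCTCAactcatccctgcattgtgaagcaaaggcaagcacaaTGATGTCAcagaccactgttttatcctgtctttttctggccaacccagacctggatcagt
The pattern, searched on both strands, was found in 4 of the 5 windows and in 8.83% of all 32851 promoter windows of the table. Because it was chosen with these windows in view, its count in them cannot be read as an excess over all windows. Its matches began at -67 and -50 relative to the start of Ccin, at -36 in Actl7b, at -40 in Actl7a, and at -104 and -60 in Actl9. The full cAMP response element TGACGTCA, a site known to be bound by CREB and CREM factors and contained in the pattern, was in 1 of the 5 windows, that of Ccin, and in 1.79% of all windows. Its first letters TGACG were in the same window and in 20.8% of all. The TATA box letters TATAAA were in the Actl9 window and in 13.6% of all. They began there at -242, before the bases shown, and on the other strand at -130. The GC box CCGCCC was in the Ccin window, at -92 on the other strand, and in 35.7% of all. Such a match describes the letters only.

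The matrix held 2552 cells, 1237 of mouse 1 (median depth 17871 UMIs) and 1315 of mouse 2 (19184), and no barcode in common. Clustering without the 9 genes gave 6 germ cell clusters large enough to be compared in both mice. In the order of a pseudotime they were an early spermatocyte-like cluster of 164 cells, a cluster of pachytene or later spermatocyte-like cells (526 cells, below "pachytene"), an unnamed cluster of 690 cells led by genes of the Ssxb family, a round spermatid-like cluster of 447 cells (below "round"), and 2 clusters of elongating or condensing spermatid-like cells with 193 and 514 cells, below "earlier" and "later condensing". The unnamed cluster scored highest for round spermatids, but only 2 of the 13 markers of that class reached 1.5 times the level of all cells. Ssxb1 and Ssxb2, which are round spermatid markers in the list used, were among its 10 leading genes. None of the round spermatid markers was among the 10 leading genes of the round cluster, and likewise for the earlier condensing cluster. Protamine and transition protein genes took 6.93% and 6.38% of UMIs in the earlier condensing cluster (mouse 1 and mouse 2) and 18.3% and 15.2% in the later one, whose median depth was 11718 UMIs against 23995. Their order reversed when 30 in place of 15 neighbours were used for the pseudotime. Leydig-like (5), Sertoli-like (7) and spermatogonium-like (6) cells were too few to be compared. Levels are in counts per 1000000 UMIs (CPM), given for mouse 1 and then mouse 2, and are set side by side only within a gene.

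All 9 genes were higher in round spermatid-like cells than in spermatocyte-like cells. The largest difference was that of Cylc2, at 6.33 ± 0.16 on the log2 scale (± SE, adjusted p = 1.07e-12, edgeR), and the smallest was that of Actl9, at 1.77 ± 0.15 (adjusted p = 6.19e-08). Of the 14037 genes tested, 38.4% were higher and 40.8% lower in this comparison. The median log2 difference was 4.68 over the 9 genes and -0.12 over all genes. From spermatocyte-like to elongating or condensing spermatid-like cells all 9 were higher as well, by 2.25 (Actl7b) to 7.14 (Cylc2) on the log2 scale, where 41.3% of all genes were higher and 42.4% lower. Apart from Actl7b and Actl9 in pachytene cells, the levels in spermatocyte-like cells could not be told apart in CPM from those in somatic cells. The somatic levels are given further on. For the genes other than Actl7b and Actl9, the size of a fold over spermatocyte-like or pachytene cells is therefore uncertain. Between the round and the elongating or condensing class 8 of 9 were higher (28.2% of all genes) and Actl7b, at -0.14 ± 0.16, was not called (adjusted p = 0.482).

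The calls in the last of these comparisons depended on the scaling. edgeR's TMM factors, which assume that most genes keep their level, were 0.58 in both mice for the elongating or condensing class and 1.06 for the round class. With library sizes alone the median over all genes was -0.89 on the log2 scale instead of -0.04, and the calls over all genes went from 28.2% higher and 27.1% lower to 15.5% higher and 52.2% lower. On that scale 5 of the 9 genes were higher (Actrt2, Ccin, Actl9, Capza3 and Wbp2nl), Actl7b was lower by 1.01 ± 0.16 (adjusted p = 6.47e-05), and Actl7a (-0.12), Cylc2 (-0.05) and Plcz1 (0.19) were not called. From spermatocyte-like to elongating or condensing cells all 9 genes stayed higher with library sizes, but the folds were smaller. They ran from 1.075 (Actl7b) to 5.97 (Cylc2), and the median over all genes was -1.28 instead of -0.12. The CPM below are on the scale of library sizes. Folds are with TMM unless stated.

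**Figure D1:**
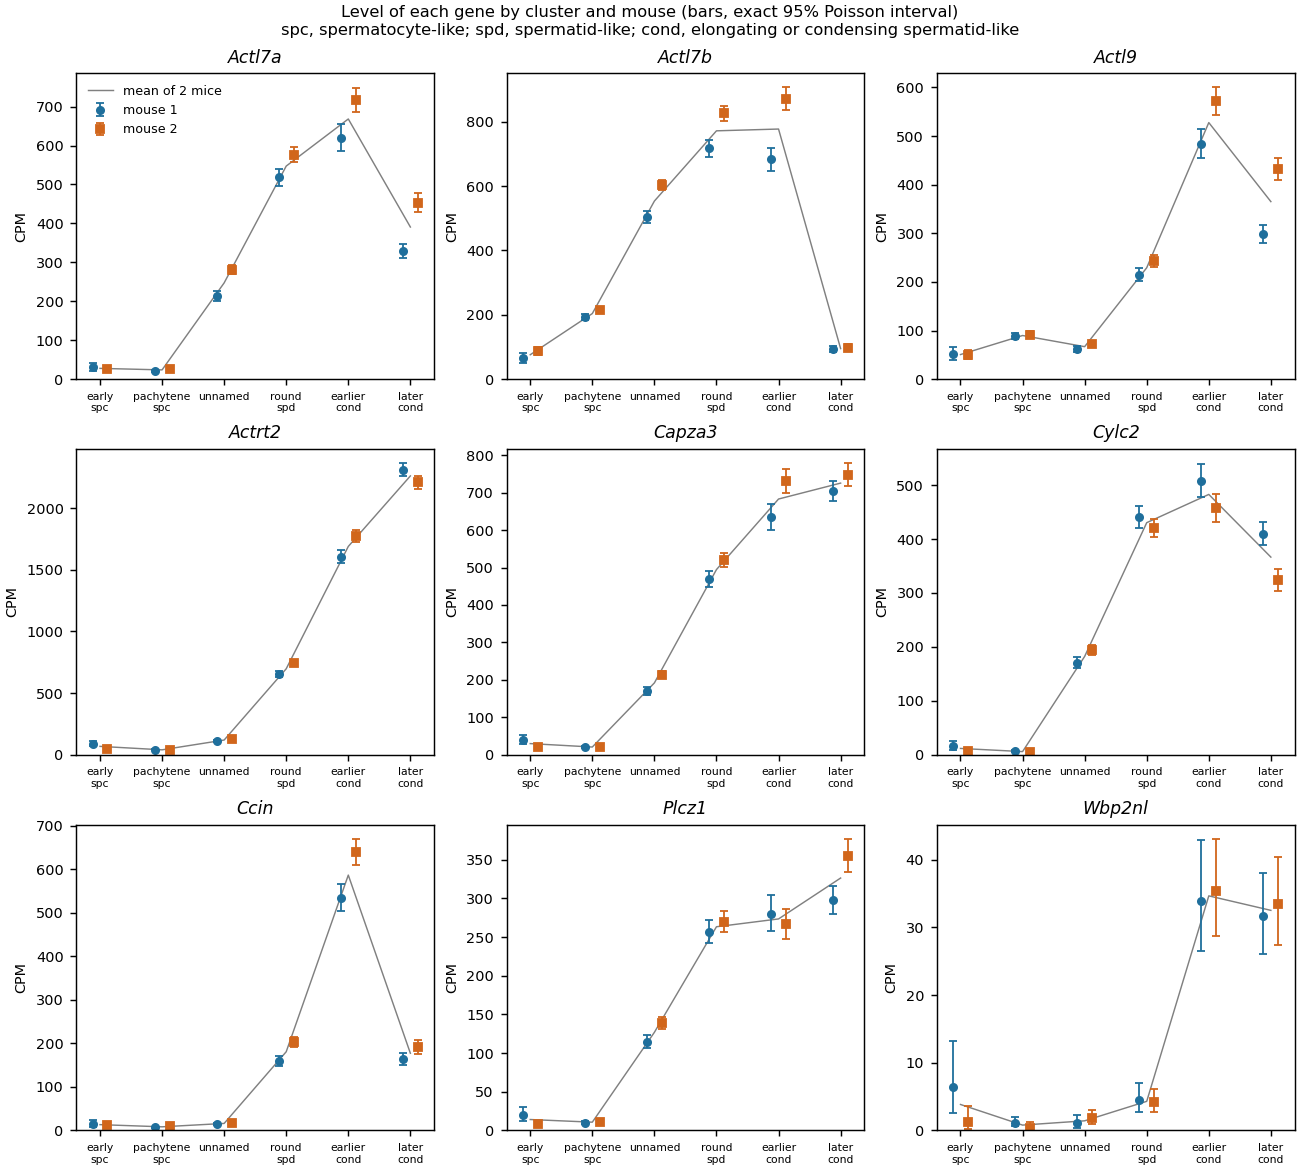
Level of each gene in CPM (linear axis from 0) in the 6 germ cell clusters, 1 point per mouse with its exact 95% Poisson interval, which covers counting error only, and a grey line through the mean of the 2 mice. Actl7b and Ccin drop from the earlier to the later condensing cluster, Actrt2 rises to 2311 and 2209 CPM there.

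Actl7b encodes an actin-like protein that spermatids need for their shaping, and with Actl9 it had the earliest rise of the 9 genes. It stood at 65.0 and 86.7 CPM in early spermatocyte-like cells, 193 and 215 in pachytene cells, 504 and 603 in the unnamed cluster, 717 and 826 in the round cluster, 683 and 872 in the earlier condensing cluster and 93.2 and 96.8 in the later one. The mice did not overlap between early spermatocyte-like and pachytene cells, nor between the earlier and the later condensing cluster. The rise into pachytene cells was 1.63 ± 0.19 on the log2 scale (adjusted p = 2.12e-07), in a comparison where 25.6% of 13891 genes were higher. The drop at the end was -2.45 ± 0.18 (adjusted p = 3.65e-10), where 23.4% of genes were lower. The step from round to earlier condensing cells was called with TMM (0.52 ± 0.17, adjusted p = 0.0137) but was 0.01 with library sizes (adjusted p = 0.962) and -0.018 with no gene filter (adjusted p = 1), and in mouse 1 the round cluster was the higher of the 2.

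Actl7a, its neighbour, encodes an actin-like protein needed for the attachment of the acrosome to the nucleus, and it came on later and stayed longer. Its level was 30.2 and 25.2 CPM in early spermatocyte-like cells and 21.5 and 26.2 in pachytene cells, where no change was called (0.05 ± 0.24, adjusted p = 0.897). It then rose to 213 and 281 in the unnamed cluster (3.45 ± 0.19, adjusted p = 5.20e-13), 519 and 576 in the round cluster and 620.0 and 717 in the earlier condensing cluster, and stood at 329 and 453 in the later one. The last step was not called with TMM (-0.19 ± 0.17, adjusted p = 0.417) and was a fall of -0.78 ± 0.16 with library sizes (adjusted p = 5.08e-04). The highest level, in the earlier condensing cluster, was not separated by the test from the next, in the round cluster, on the CPM scale (0.29, adjusted p = 0.130).

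The ratio of Actl7a to Actl7b UMIs was 0.111 and 0.122 in pachytene cells, 0.724 and 0.697 in the round cluster, 0.908 and 0.822 in the earlier condensing cluster and 3.53 and 4.68 in the later one, so that Actl7b had more UMIs up to the earlier and Actl7a in the later condensing cluster. It was 0.465 and 0.290 in early spermatocyte-like cells and 0.423 and 0.466 in the unnamed cluster. The 2 mice did not overlap between any of the last 5 clusters. A ratio within a library does not depend on the scaling, and this one was not tested. The ratios in spermatocyte-like cells rest on Actl7a levels that could not be told apart in CPM from its level in somatic cells, given further on. Actl7b is overlapped on the other strand by Gm26657, and reads of such a pair can be told apart only by strand.

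**Figure D2:**
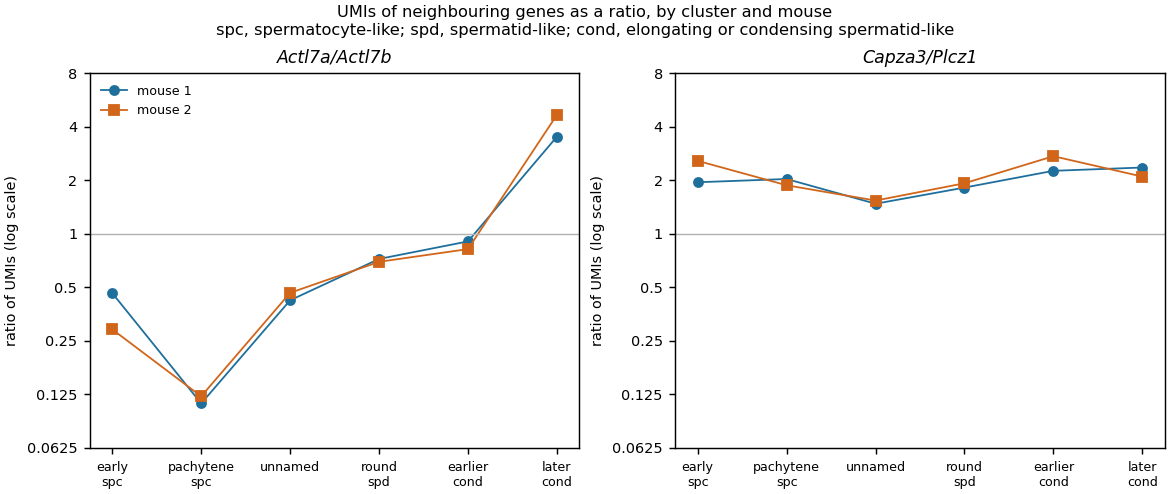
Ratio of the UMIs of Actl7a to Actl7b (left) and of Capza3 to Plcz1 (right) by cluster, 1 point per mouse, on a log axis. The first runs from 0.111 in pachytene cells to 4.68 in the later condensing cluster. The second lies between 1.48 and 2.74 and rises from the unnamed to the earlier condensing cluster in both mice. In spermatocyte-like cells Actl7a, Capza3 and Plcz1 could not be told apart in CPM from their levels in somatic cells.

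Actl9, a partner of Actl7a in acrosome anchoring, had 2 phases. It measured 51.3 and 49.97 CPM in early spermatocyte-like cells, 88.6 and 91.0 in pachytene cells and 61.9 and 71.8 in the unnamed cluster. The first step was a rise of 1.07 ± 0.20 on the log2 scale (adjusted p = 9.34e-05). The second was -0.36 ± 0.17 and was not called (adjusted p = 0.0728), but it was with the mouse as a block (adjusted p = 0.00364) with library sizes (adjusted p = 0.0250) and without doublets (adjusted p = 0.00489), and the clusters did not overlap. Actl9 then rose to 215 and 243 CPM in the round cluster (2.02 ± 0.17, adjusted p = 2.34e-09) and to 484 and 572 in the earlier condensing cluster (1.71 ± 0.17, adjusted p = 1.55e-08). It stood at 299 and 432 in the later one, without a call with TMM (0.05 ± 0.16, adjusted p = 0.846) lower with library sizes (-0.54, adjusted p = 0.00624) and higher after thinning to 5000 UMIs per cell (0.52, adjusted p = 0.0227).

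Actrt2, an actin-related protein of the calyx, rose in CPM at each step from pachytene cells to the later condensing cluster. From 40.5 and 39.4 CPM in pachytene cells it reached 110.2 and 128 in the unnamed cluster, 654 and 740.4 in the round cluster, 1607 and 1770.4 in the earlier and 2311 and 2209 in the later condensing cluster. Each of these 4 steps was called with either scaling. The last was 1.003 ± 0.17 with TMM (adjusted p = 4.99e-05) and 0.41 ± 0.16 with library sizes (adjusted p = 0.0485). The pachytene level lay within the Actrt2 interval of somatic cells (25.5 to 116 CPM). The unnamed cluster, at 121 CPM over both mice (115 to 127), was not wholly above that interval. The size of the step between these 2 clusters is therefore uncertain. Of all Actrt2 UMIs 45.6% were in the later condensing cluster. Per cell it had fewer UMIs there (29.3 and 30.2) than in the earlier one (38.5 and 46.3). Which condensing cluster came last depended on the number of neighbours used for the pseudotime.

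Among the capping and calyx genes, Capza3, the testis form of the alpha subunit of the protein that caps actin filaments, followed a smooth course. It was at 20.3 and 20.9 CPM in pachytene cells, 170 and 214 in the unnamed cluster, 469 and 520 in the round cluster, 635 and 731 in the earlier and 704 and 747 in the later condensing cluster. The first of these steps was the largest, at 3.28 ± 0.19 on the log2 scale (adjusted p = 8.03e-13), and the last was 0.67 ± 0.17 with TMM (adjusted p = 0.00230) and 0.08 with library sizes (adjusted p = 0.741).

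Cylc2, which encodes the basic calyx protein cylicin 2, had its largest step into the unnamed cluster and rose again into the round cluster. It was at 6.33 and 5.37 CPM in pachytene cells and 171 and 194 in the unnamed cluster, a rise of 5.01 ± 0.19 on the log2 scale (adjusted p = 2.05e-15) in a comparison where 31.9% of genes were higher. The lower of these levels lay within the interval of somatic cells (1.79 to 53.3 CPM), so the size of the fold is uncertain. Round spermatid-like cells had 440.4 and 420.3 CPM, a further rise of 1.48 ± 0.15 (adjusted p = 2.98e-08). The earlier condensing cluster had 508 and 457 CPM and the later one 410 and 324. On the CPM scale the earlier condensing, round and later condensing clusters were not separated as neighbours in this order (adjusted p = 0.341 and 0.147). Between the earlier and the later condensing cluster Cylc2 was 0.19 with TMM (adjusted p = 0.349) -0.40 with library sizes (adjusted p = 0.0303) and 0.42 with DESeq2 (adjusted p = 0.0253).

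Ccin, which encodes calicin, was high over a short span. It measured 6.81 and 9.39 CPM in pachytene cells and 14.6 and 17.2 in the unnamed cluster, below the upper end of its interval in somatic cells (41.1 CPM). It rose to 159 and 203 in the round cluster (3.75 ± 0.19, adjusted p = 8.43e-13) and to 534 and 639 in the earlier condensing cluster (2.20 ± 0.16, adjusted p = 1.39e-10), and was back at 163 and 191 in the later one (-1.15 ± 0.16, adjusted p = 4.49e-06). The earlier condensing cluster held 45.1% of all Ccin UMIs in 193 cells. No difference was called between its levels in the round and the later condensing cluster on the CPM scale (0.04, adjusted p = 0.827).

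Of the egg activation genes, Plcz1, the phospholipase C that sets off calcium waves in the egg, came on with Capza3. Its level was 9.98 and 11.1 CPM in pachytene cells, 115 and 139 in the unnamed cluster (3.66 ± 0.20, adjusted p = 2.25e-13), 257 and 270 in the round cluster (1.30 ± 0.16, adjusted p = 7.73e-07), 280.1 and 267 in the earlier condensing cluster and 297 and 355 in the later one. The mice overlapped between the round and the earlier condensing cluster, and on the CPM scale neither that pair (0.05, adjusted p = 0.804) nor the earlier and later condensing pair (0.25, adjusted p = 0.245) was called different. Both steps were called with TMM, at 0.55 ± 0.16 (adjusted p = 0.00825) and 0.84 ± 0.17 (adjusted p = 2.50e-04). The ratio of Capza3 to Plcz1 UMIs lay between 1.48 and 2.74 in all 6 clusters of both mice. It was 1.48 and 1.54 in the unnamed cluster, 1.82 and 1.93 in the round cluster and 2.27 and 2.74 in the earlier condensing cluster. The mice did not overlap between these clusters. The later condensing cluster had 2.37 and 2.10, and the ratio was not tested. In spermatocyte-like cells neither gene could be told apart in CPM from its level in somatic cells, given further on. The ratio there cannot be read as that of the cells themselves, and in early spermatocyte-like cells it rested on 22 and 19 Plcz1 UMIs. The overlap of the pair is at the 5′ ends, away from the 3′ ends that this chemistry reads.

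Wbp2nl, which encodes a WW domain-binding protein of the theca behind the acrosome, had the fewest UMIs and came on late. Its 478 UMIs gave 1.15 and 0.402 CPM in pachytene cells, 1.02 and 1.80 in the unnamed cluster and 4.45 and 4.13 in the round cluster. It was then 34.0 and 35.4 in the earlier condensing cluster, 3.52 ± 0.30 higher on the log2 scale (adjusted p = 1.51e-09) in a comparison where 23.4% of genes were higher, and 31.6 and 33.4 in the later one. The last step was not called (0.49 ± 0.25, adjusted p = 0.127) in the main analysis, but was with the mouse as a block (adjusted p = 0.0279), with DESeq2, with no gene filter and without doublets (adjusted p = 0.0147 to 0.0470). With library sizes its sign turned, without a call (-0.10, adjusted p = 0.807). The rise into the round cluster rested on 19 and 25 UMIs. It was called from the spermatocyte-like class (2.17 ± 0.40, adjusted p = 1.73e-04) but not after thinning to 5000 UMIs per cell (1.61, adjusted p = 0.109). Within mouse 1 alone the difference of log2 CPM was 1.55. The step from the unnamed to the round cluster (1.77, adjusted p = 0.00151) also lost its call on thinning (0.89, adjusted p = 0.390). The level in the round cluster is below the 22.1 CPM that a count of 0 allows in somatic cells.

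**Figure D3:**
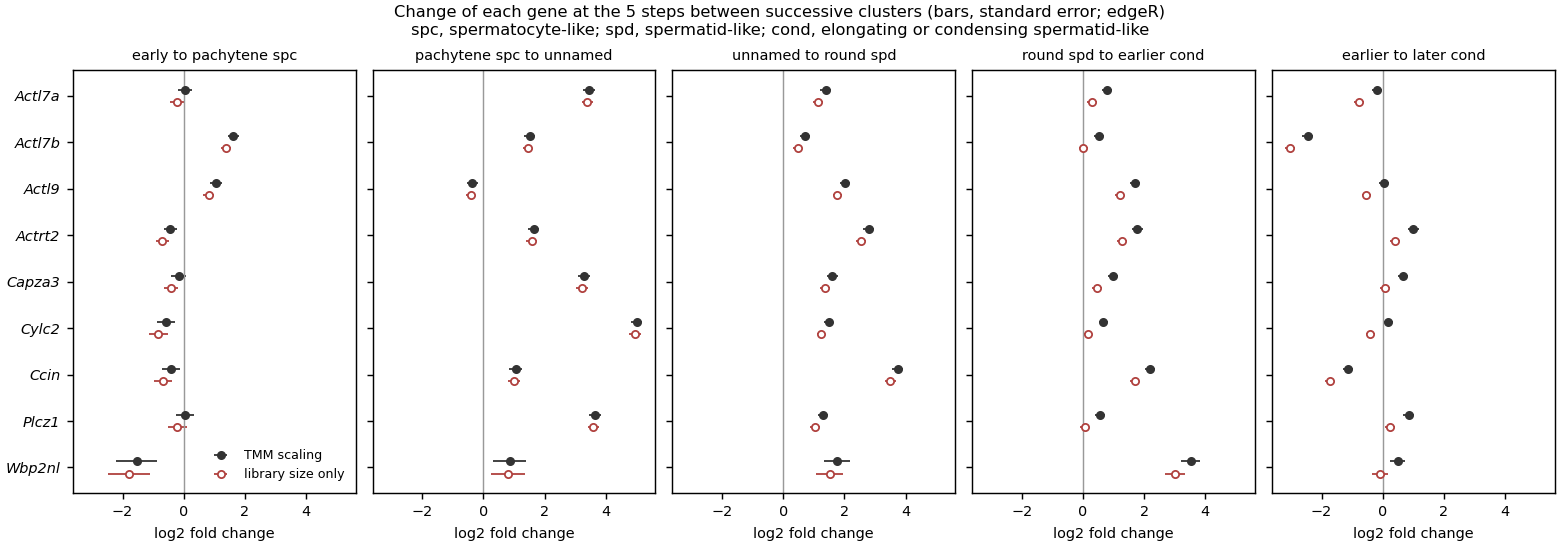
Change of each gene on the log2 scale at the 5 steps between successive clusters, with its standard error, for TMM scaling (filled) and library sizes alone (open). The open points lie further left at the steps into and within condensing cells, and Actl7b and Ccin are below 0 at the last step on both scales.

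By count, 2 of 9 genes (Actl7b and Actl9) were higher at the step into pachytene cells, against 25.6% of all genes, 7 at the step into the unnamed cluster, against 31.9%, and all 9 at each of the next 2 steps, where 25.8% and 23.4% of all genes were higher. At the step into the later condensing cluster 3 were higher (Actrt2, Plcz1 and Capza3) against 16.1% of all genes, and 2 were lower against 23.4%. With library sizes the count at the step from round to earlier condensing cells was 5 higher (17.4% of all genes), since Actl7a, Actl7b, Cylc2 and Plcz1 were not called. With no gene filter the same 4 genes were not called at that step either (0.26, -0.018, 0.13 and 0.02, adjusted p from 0.288 to 1). At the step into pachytene cells Cylc2, Actrt2 and Wbp2nl were lower with library sizes, 3 of 9 against 31.5% of all genes. DESeq2 also called Cylc2 (-0.88, adjusted p = 0.0139), Actrt2 (-0.77, adjusted p = 0.00396) and Wbp2nl (-1.87, adjusted p = 0.00707) lower at that step. The Wbp2nl difference rested on 10 UMIs in early spermatocyte-like and 15 in pachytene cells. Within mouse 2 alone its difference of log2 CPM was -0.84. Of the 211 Actrt2 UMIs in early spermatocyte-like cells, 47 were in a single cell. Both counts, 2 higher with TMM and 3 lower with library sizes, are near the share of all genes. At the last step it was 1 higher and 5 lower, against 6.05% and 36.6% of all genes. Without doublets Plcz1 was also higher at the first step (0.71, adjusted p = 0.0424).

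Counted per cell, with no scaling for depth, every one of the 9 had its highest mean in the earlier condensing cluster, which also had the greatest median depth of the 6 clusters (23995 UMIs). Actrt2, for example, had 38.5 and 46.3 UMIs per cell there, against 14.8 and 17.3 in the round cluster and 29.3 and 30.2 in the later condensing cluster. Plcz1 had 6.71 and 6.98 UMIs per cell there and 3.77 and 4.85 in the later cluster. Fewer RNA molecules per cell and a lower capture of each cell's RNA cannot be told apart in these data.

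Along the ordered cells, cut into 20 bins of 126 or 127 cells, the genes differed in where they reached 50% of their own highest level. That is not the bin of first rise. Cylc2, Plcz1, Capza3 and Actl7a all climbed from bin 7, and Actl9 had a first, smaller rise into pachytene cells. The first bin with 50% of a gene's highest level was bin 8 for Actl7b, 10 for Cylc2, 11 for Actl7a and Plcz1, 12 for Capza3, 14 for Actl9, and 15 for Actrt2, Ccin and Wbp2nl. The unnamed cluster made up most cells of bins 6 to 11 and the round cluster those of bins 12 to 14. Each mouse on its own gave the same bin or 1 next to it, so close neighbours could swap. In mouse 1 Plcz1 was at bin 10 and Cylc2 at 11, and in mouse 2 Cylc2 was at 10 and Plcz1 at 11. Highest levels were reached in bin 15 by Actl7a, Actl7b and Cylc2, 16 by Actl9 and Ccin, 17 by Wbp2nl, 18 by Capza3 and 20 by Actrt2 and Plcz1. In the last bin Actl7b stood at 8.19% and 9.88% of its highest level and Ccin at 12.05% and 8.76%, whereas Actrt2 was at its highest in both mice. With 30 neighbours the highest bin moved for all 9 genes. It was bin 14 for Actl7a, Actl7b and Cylc2 and bin 16 for Actrt2 and Capza3. Plcz1 was then highest in bin 17, Ccin and Wbp2nl in 19 and Actl9 in 20. The first bin at 50% moved by at most 1. The sequence of the 50% bins over both mice thus held, apart from ties, under both orders of the last 2 clusters, and the sequence of the highest levels did not.

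**Figure D4:**
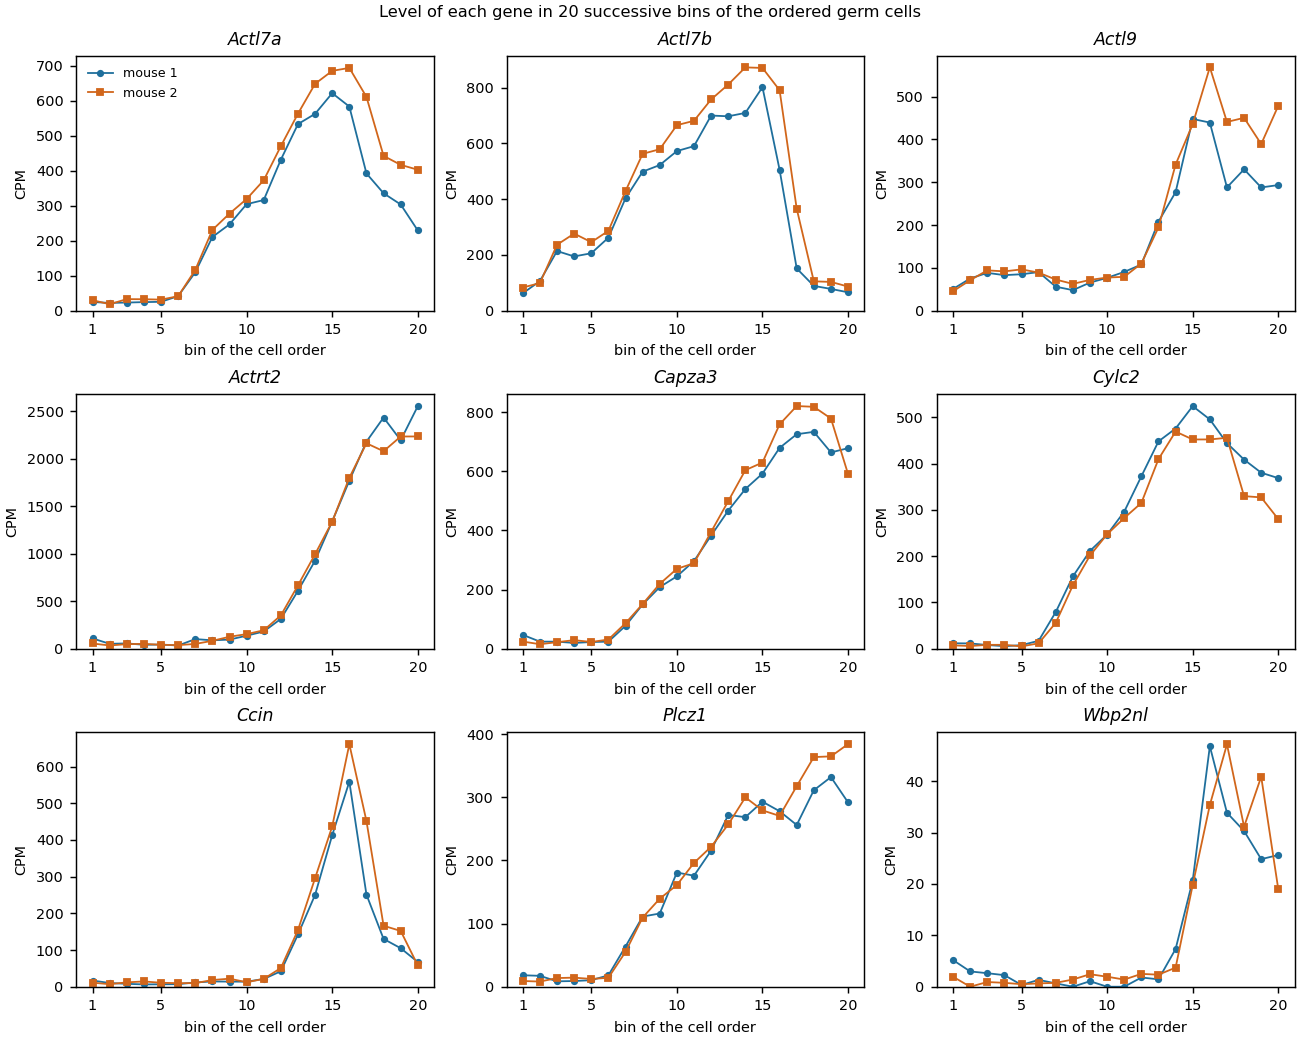
Level of each gene in CPM (linear axis from 0) in 20 successive bins of the ordered germ cells, 1 line per mouse. Actl7b is above its starting level by bin 3, Cylc2, Plcz1, Capza3 and Actl7a climb from bin 7, Ccin appears as a late, narrow rise, and Wbp2nl rises late and is at 54.8% and 40.1% of its peak in the last bin.

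Shares of cells with a UMI were compared after each cell was thinned to 5000 UMIs, which no cell fell short of. In the earlier condensing cluster Actrt2 was found in 193 of 193 cells, Actl7a in 96.9% and Ccin in 93.8% (exact 95% interval 89.4% to 96.7%). Ccin was found in 7.83% of the unnamed cluster, 49.0% of the round cluster and 42.2% of the later condensing cluster (37.9% to 46.6%), so fewer cells had a UMI at the end, at equal depth. Actl7b went from 95.9% to 32.9% at the same step. Wbp2nl was found in 11.4% and 11.1% of the 2 condensing clusters and in no more than 1.83% of cells elsewhere among the 6. With all UMIs the share for Wbp2nl in the earlier condensing cluster was 52.8%.

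**Figure D5:**
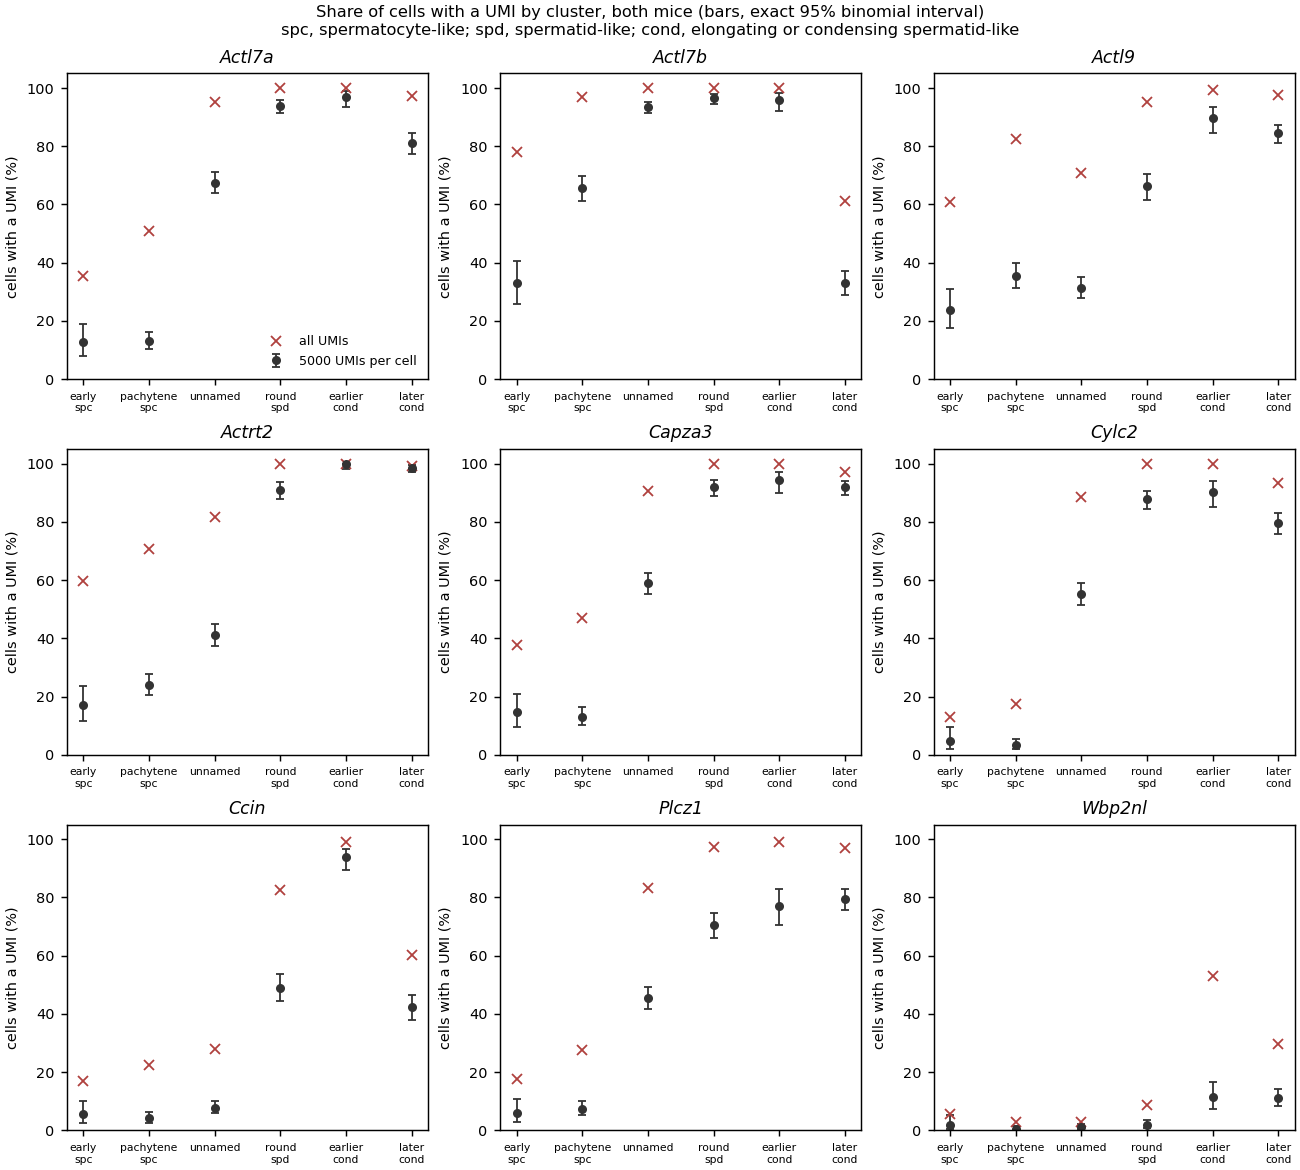
Percent of cells with at least 1 UMI of each gene by cluster, both mice together, after thinning to 5000 UMIs per cell (points with exact 95% binomial intervals, counting error only) and with all UMIs (crosses). For Ccin the thinned share goes from 49.0% to 93.8% and back to 42.2% over the last 3 clusters.

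Low levels in spermatocyte-like cells have to be read beside the UMIs of these genes in somatic cells. The source of those UMIs, such as free RNA in the droplets, was not tested. The 12 Leydig-like and Sertoli-like cells, which should lack these RNAs, held 135496 UMIs with medians of 9856 and 12039 per cell, and 8 of the 9 genes had 1 to 8 UMIs in them. Actrt2 had 8 UMIs or 59.0 CPM there (exact 95% Poisson interval 25.5 to 116), above its level in pachytene cells. After thinning it was found in 1 of 5 Leydig-like and 3 of 7 Sertoli-like cells, against 24.0% of pachytene cells. Wbp2nl had none, which allows up to 22.1 CPM (3 counts of the total). Only Actl7b, at 202 CPM in pachytene cells over both mice (195 to 209) against 29.5 (8.04 to 75.6), and Actl9, at 89.6 (85.3 to 94.1) against 22.1 (4.57 to 64.7), were above the somatic interval in pachytene cells. An interval counts as above here only where the whole of it lies higher. In early spermatocyte-like cells none of the 9 met this, although Actl7b, at 80.0 CPM (70.9 to 89.9), exceeded the upper end of 75.6. The somatic intervals rest on 0 to 8 UMIs in 12 cells. In CPM the levels of the other 7 in spermatocyte-like cells could not be told apart from them. Median depth was 19576 UMIs in early spermatocyte-like and 20843 in pachytene cells. The same count per cell thus gives a higher CPM in the shallower somatic cells. These comparisons hold for the CPM scale only, and a comparison of counts per cell was not made. Single early spermatocyte-like cells held up to 47 UMIs of Actrt2 and 14 of Capza3, and what such cells add to these levels was not tested.

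Other genes of the theca and the acroplaxome, the actin-rich plate under the acrosome, mostly rose with the 9 genes into round cells and, with TMM, were mostly lower after that. Of 12, 9 were higher in round spermatid-like than in spermatocyte-like cells (38.4% of all genes) and 3 were lower (40.8% of all genes). The largest differences were those of Pfn3 (6.18 ± 0.17 on the log2 scale), a testis profilin, Fam209 (5.92 ± 0.16), Spata46 (5.73 ± 0.17) and Spaca1 (5.34 ± 0.15), an acrosomal membrane protein, with adjusted p from 1.13e-12 to 1.46e-12. From the round to the elongating or condensing class 3 were higher (28.2% of all genes) and 7 lower (27.1% of all genes). The median of the 12 was -0.67, against 1.38 for the 9 genes. Actrt3 (4.30 ± 0.19, adjusted p = 2.10e-10) and Actrt1 (1.92 ± 0.16, adjusted p = 1.10e-07), actin-related proteins like Actrt2, were among the 3, and Zpbp2 (-1.84 ± 0.12) and Dpy19l2 (-1.82 ± 0.15), both needed for the acrosome, among the 7. Actrt3 went from 22.3 and 32.0 CPM in round spermatid-like cells to 352 and 427 in the earlier condensing cluster, and Cylc1, the X-linked cylicin, from 158 and 176 to 247 and 281. Relative to spermatocyte-like cells 7 of 12 were higher in condensing cells (41.3% of all genes), led by Actrt3 (6.68), Actrt1 (6.66), Cylc1 (6.46) and Pfn3 (6.18).

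The general actin and capping genes and Wbp2, relatives of the 9 that other cells also use, moved in both directions. Of 11 tested, 3 were higher and 5 lower in round spermatid-like than in spermatocyte-like cells. Over all genes 38.4% were higher and 40.8% lower, and both counts are near these shares. Actr2, a subunit of the Arp2/3 complex, was higher by 3.49 ± 0.16 on the log2 scale (adjusted p = 5.37e-11), and Wbp2 (-2.93 ± 0.15), Actg1 (-2.62 ± 0.13), the gamma actin of the cytoplasm, and Actr1a (-1.42 ± 0.13) were lower, with adjusted p from 1.57e-10 to 1.72e-07. Capza1 and Capza2, the widely used relatives of Capza3, named here after their values had been seen, were lower by -1.41 ± 0.17 and -1.001 ± 0.16, and measured 7.21 and 9.87 CPM (Capza1) and 8.60 and 8.60 CPM (Capza2) in the later condensing cluster. Capzb, the beta subunit that either alpha form binds, was not called between round spermatid-like and spermatocyte-like cells (0.11 ± 0.12, adjusted p = 0.391). From the round to the elongating or condensing class Capzb was higher by 2.73 ± 0.12 (adjusted p = 2.55e-10). Capza1 (-0.33, adjusted p = 0.196) and Capza2 (-0.22, adjusted p = 0.341) were not called in that comparison, but were lower with library sizes (-1.195 and -1.079). Actb (2.97 ± 0.12) and Wbp2 (1.01 ± 0.16) were also higher in the elongating or condensing than in the round class, while Actl6a was lower (-2.92 ± 0.14). With library sizes Wbp2 was not called there (0.15, adjusted p = 0.439). Capzb reached 688 and 757 CPM and Actb 1255 and 1368 CPM in the later condensing cluster. From spermatocyte-like to condensing cells 3 of the 11 were higher (Actr2 3.86, Actb 3.71 and Capzb 2.84) and 8 lower, Actg1 by -2.89. Over all genes 41.3% were higher and 42.4% lower in that comparison.

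Among other phospholipase C genes, 8 of 12 were tested, all at low levels apart from Plcd4. In round spermatid-like cells 3 were higher than in spermatocyte-like cells: Plcb4 (4.10 ± 0.28 on the log2 scale, adjusted p = 6.27e-09), Plcd4 (3.16 ± 0.14, adjusted p = 3.44e-11) and Plcd1 (0.92 ± 0.38, adjusted p = 0.0390), the last not with library sizes (adjusted p = 0.146). That count, 3 of 8, is near the 38.4% of all genes that were higher. Plcd4 was at 35.4 and 33.5 CPM in pachytene cells, at 239 and 233 in the round cluster and at 135 and 146 in the later condensing one. Against the round class, the elongating or condensing class was higher for Plcb2 (4.63 ± 0.31), Plcb1 (4.16 ± 0.69) and Plcg2 (1.59 ± 0.37) and lower for Plcb4 (-0.82 ± 0.25). Plcb2 was at 30.1 and 33.2 CPM in the earlier condensing cluster, Plcb1 at 5.34 and 3.21. Plcg2 was not called with library sizes (0.73, adjusted p = 0.0969). From spermatocyte-like to condensing cells 6 were higher, by 4.73 for Plcb2, 4.49 for Plcb1, 3.38 for Plcd4 and 3.27 for Plcb4, and 2 were lower. Of all genes 41.3% were higher and 42.4% lower.

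The genes most like each of the 9 were found among 7589 genes by Pearson's r of log2(CPM + 10) over the 12 sums of 6 clusters and 2 mice, given as a description, since the sums share libraries and clusters. They were Lpcat2b and Tbata for Actl7a (r = 0.996 and 0.996), Actr10 and Scamp2 for Actl7b (0.983 and 0.982), Vhl and Cdca2 for Actl9 (0.983 and 0.982), and 1700022A21Rik and Hmgb4 for Actrt2 (0.998 and 0.997). For Capza3 they were Tmem247 and Gpd2 (0.999 and 0.999), for Cylc2 1700011L22Rik and Tmco5 (0.998 and 0.998), and for Ccin Sox5os3 and Banf2 (0.998 and 0.997). Plcz1 was most like Nupr1l and 4933402J07Rik (0.999 and 0.998), and Wbp2nl most like Susd6 and Prss52 (0.997 and 0.996). Among the 9 themselves r was highest for Capza3 with Plcz1 (0.994) and lowest for Actl7b with Wbp2nl (-0.0077).

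The 2 mice lay apart for several genes in early spermatocyte-like cells, 53 of mouse 1 and 111 of mouse 2, where counts were low. Gaps between the mice on the log2 scale were taken after 1 CPM was added to each level, which narrows them where levels are low. In early spermatocyte-like cells mouse 2 was lower by -1.73 for Wbp2nl, -1.26 for Plcz1, -0.93 for Capza3, -0.91 for Cylc2 and -0.90 for Actrt2, which measured 88.9 and 47.1 CPM. Actl7a and Actl9 were the genes with the widest gap in the later condensing cluster, 0.46 and 0.53 higher on the log2 scale in mouse 2 than in mouse 1, while Cylc2 was higher in mouse 1 there (410 against 324 CPM). With 2 mice these gaps cannot be tested.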

How the data were processed

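The values are deposited UMI counts, whole numbers per gene and cell. The authors demultiplexed reads with bcl2fastq 2.17.1.14, aligned and counted them with Cell Ranger 2.0.0 (build mm10, repeat-masked, with repeat sequences added), merged the libraries after evening out the reads per cell, and deposited the barcodes called as cells. This step evens depth between mice, and short reads at 3′ ends carry no information on gene structure.

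The 9 genes, the companion lists and the naming limits were chosen with earlier results of these data known. All 2552 cells were kept, with 27 doublets called by scrublet. K-means (K = 9, 10 principal components, seed 42) used 27745 rows without the 9 genes and their companions. Clusters took the class with the highest marker score, where at least 3 markers had 1.5 times the CPM of all cells. The pseudotime was scanpy's, with 15 neighbours, a number settled after the order with 30 had also been seen. UMIs summed per mouse and class or cluster were tested with edgeR 4.0.16 in R 4.3.3 (quasi-likelihood, TMM, filterByExpr, Benjamini-Hochberg over all genes tested, threshold 0.05), with DESeq2 1.42.0 as an alternative. Classes come from the same cells, so p-values cover the spread between 2 mice within them only. In simulated data for the round against spermatocyte comparison, edgeR recovered 197 of 200 genes changed 4-fold, with 10 false calls among 13053 genes, and DESeq2 185. Only those 200 genes changed there, all upward in round cells, and the sums were drawn independently. In the data 38.4% of genes were called higher and 40.8% lower, so the simulated counts do not give the error rate of the real comparison. Both sums of a mouse come from 1 animal: deviations of same-numbered sums correlated at 0.124 to 0.181. Companions named are the up to 4 called genes with the largest change per list and comparison. Python 3.11.15 was used with scanpy 1.11.5, scikit-learn 1.9.0, pandas 2.3.3, leidenalg 0.10.2, matplotlib 3.10.9, scipy 1.17.1 and numpy 2.4.6. The somatic comparison and the promoter pattern were added after the data were seen. Reads and the authors' cell annotation were not used here.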

Additional observations from a re-analysis of the deposited data

How the results depend on the processing

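The 27 differences of the 9 genes between classes kept direction and call under DESeq2, no gene filter, other clusterings (K = 10, seed 1, all rows, no repeat rows, 2000 most variable rows, Leiden), either placing of the unnamed cluster and removal of doublets, except that Actl7b from round to elongating or condensing cells, not called under any of these, took both signs. With library sizes only, Actl7a (-0.12) and Cylc2 (-0.054) turned, Plcz1 (0.19) lost its call and Actl7b (-1.01) gained one in that comparison. Members called there went to 5 higher and 1 lower, and all genes from 3960 higher and 3804 lower to 2169 and 7330. Thinning took the call of Wbp2nl from spermatocyte-like to round cells (1.61) and lowered the genes called lower there from 5724 to 3810. With the mouse as a replicate block Actl7b was -0.16 (adjusted p = 0.138) from round to condensing cells. The block changed no call between classes and added 3 between successive clusters, those of Wbp2nl into pachytene cells (-1.51, adjusted p = 0.0365) and into the later condensing cluster (0.48, adjusted p = 0.0279) and of Actl9 into the unnamed cluster (-0.37, adjusted p = 0.00364). Between successive clusters, Actl9 (-0.54) and Cylc2 (-0.40) turned at the last step with library sizes. Wbp2nl (-0.10) did so too, without a call on either scale. Actl7b (-0.018) turned from round to earlier condensing cells with no gene filter. At that step Actl7a (0.26), Cylc2 (0.13) and Plcz1 (0.02) lost their calls with no gene filter. At the last step Actl9 gained a call on thinning (0.52) and Cylc2 with DESeq2 (0.42), and from the unnamed to the round cluster Wbp2nl lost its call on thinning (0.89). Into pachytene cells Cylc2, Actrt2 and Wbp2nl gained calls as lower, both with DESeq2 and with library sizes. The causes were not tested. Leaving out a mouse leaves 1 library per class and no test. The difference of TMM-scaled log2 CPM within the other mouse, with a small prior count added, was taken instead. It is not edgeR's fold, so the values of both mice can lie on the same side of the main one. Ranges were then 4.77 to 4.82 for Actl7a, 6.17 to 6.38 for Cylc2, 4.62 to 4.63 for Ccin and 4.81 to 4.98 for Plcz1 (round over spermatocyte), 7.05 to 7.11 for Cylc2 and 6.40 to 6.47 for Ccin (condensing over spermatocyte), and for Wbp2nl 1.55 to 2.54 (round over spermatocyte), 5.20 to 6.37 (condensing over spermatocyte) and 3.65 to 3.83 (condensing over round), the lowest each time without mouse 2. Wbp2nl rested on 478 UMIs in all.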
